A study of Saccharomyces cerevisiae with 6 samples.

Results

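The genes described here are 33 genes of meiotic recombination and synapsis of Saccharomyces cerevisiae, chosen by name for their roles in meiotic double-strand breaks, strand exchange, the synaptonemal complex, crossover formation and the behaviour of chromosomes in meiosis I. They are 33 of the 10239 loci of a strand-specific RNA sequencing count table, and all 33 passed the filter on low counts that left 7971 loci for testing. The libraries came from aerial cells (3 libraries), which grow above the agar, and from root cells (3 libraries), which grow into it, both separated from 3-day-old colony biofilms of BR-F, a wild diploid strain, grown on glycerol medium. The study describes the 3 libraries of each cell type as independent biological replicates. Each library is a bulk sample of many colonies, so that more cells that express a gene and more of its RNA per cell cannot be told apart in any value given here.

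Meiosis reduces the chromosome number, and its long prophase is devoted to recombination between homologous chromosomes. Spo11 and its partners cut the DNA on chromosomes that are organised into axes by cohesin, Red1 and Hop1. The broken ends invade the homologue with the help of the strand exchange protein Dmc1, and the homologues are then joined along their length by the synaptonemal complex, a structure in which crossovers mature. Most genes of this program are silent in mitotically growing yeast. Ume6, bound to an upstream element called URS1, holds many of them down during growth, and together with Ime1 it turns the same genes on when diploid cells enter meiosis. Ndt80 acts later, through the middle sporulation element, on genes of the meiotic divisions and spore formation.

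The letters GGCGGC, the core of URS1, were found on either strand within the 250 bases before the start codon of 19 of the 33 genes (57.6%) and of 250 of 5914 annotated protein-coding genes in the table (4.23%). The core of the middle sporulation element, searched as CACAAA on both strands, was found in 5 of the 33 (15.2%) and in 979 of the 5914 (16.6%). A match of either motif can share at most 1 base with a match of the other. The following windows surround the URS1 core upstream of genes that come up repeatedly in the results. They were read from the R64 genome of RefSeq on the strand of the gene, 5′ to 3′, with the core in capitals.
MER1 (chrXIV:250809-250838, plus strand): gatcgcattttaGCCGCCgacagtgttaat
REC114 (chrXIII:536103-536132, plus strand): cgttacaaggtgGGCGGCtaacttataaaa
REC8 (chrXVI:571545-571574, minus strand): gaacttgacttcGGCGGCaaaccaatatat
HOP1 (chrIX:226419-226448, plus strand): gtttttaacctgGGCGGCtaaattgtactt
SPO22 (chrIX:226061-226090, minus strand): aatacaaacttcGGCGGCtaattgcaaata
DMC1 (chrV:548271-548300, plus strand): gaccggaaaataGCCGCCcaaggataaact
ZIP1 (chrIV:1032404-1032433, plus strand): taaaataccctcGGCGGCtaaatttttaga
CST9 (chrXII:907920-907949, plus strand): gttgacgctttgtgcGGCGGCcaacaaggg

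In MER1 and DMC1 the capitals read GCCGCC, since the core lies on the strand opposite to the gene. HOP1 and SPO22 are divergent neighbours whose coding sequences are 647 bases apart, and each has a core of its own in the interval between them. The 19 genes held 20 cores, because MEK1 has 2, and 15 of the 20 lay on the strand of the gene. Between 9 bases (CST9) and 190 bases (CSM4) separated a core from the start codon, with a median of 103.5 bases.

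Counts per library summed to between 13764726 and 17095539. The aerial libraries differed more among themselves than the root libraries, with a chi-square per degree of freedom of 115 to 287 for pairs of aerial libraries against 23.7 to 36.4 for pairs of root libraries. Of the genes that the study probed as markers, all 5 aerial markers were called higher in aerial cells and all 9 root markers higher in root cells. The study had selected these markers from the same expression data, so their calls only check the labels of the libraries. Levels are in CPM, which are counts relative to the TMM-normalized size of the library. Fold changes are aerial over root with their standard error (SE), from edgeR's quasi-likelihood test, and the Benjamini-Hochberg adjustment of p took in all 7971 loci. Calls required a 2-fold difference or more together with an adjusted p under 0.05. Positions of genes are those of R64, from the start codon to the stop codon with introns included.

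Recombination and synapsis genes were higher in aerial cells as a group of 30 called genes out of 33, with 0 called higher in root cells. Over all loci tested, 9.20% were called higher in aerial cells and 10.8% higher in root cells. DESeq2 also called 30 of the 33, and the 3 that edgeR did not call were REC107, RDH54 and CST9. Every aerial library exceeded every root library for 32 of the 33 genes, a pattern seen for 23.4% of all loci tested, and SAE3 was the exception. The log2 fold changes of the 33 ranged from 0.51 to 4.05 with a median of 2.75, against a median of 0.03 over all loci. Ordered by log2 fold change among the 7971 loci, MER1 came first, and 5 of the 10, 10 of the 20 and 19 of the 50 loci with the largest values were recombination and synapsis genes.

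**Figure D1:**
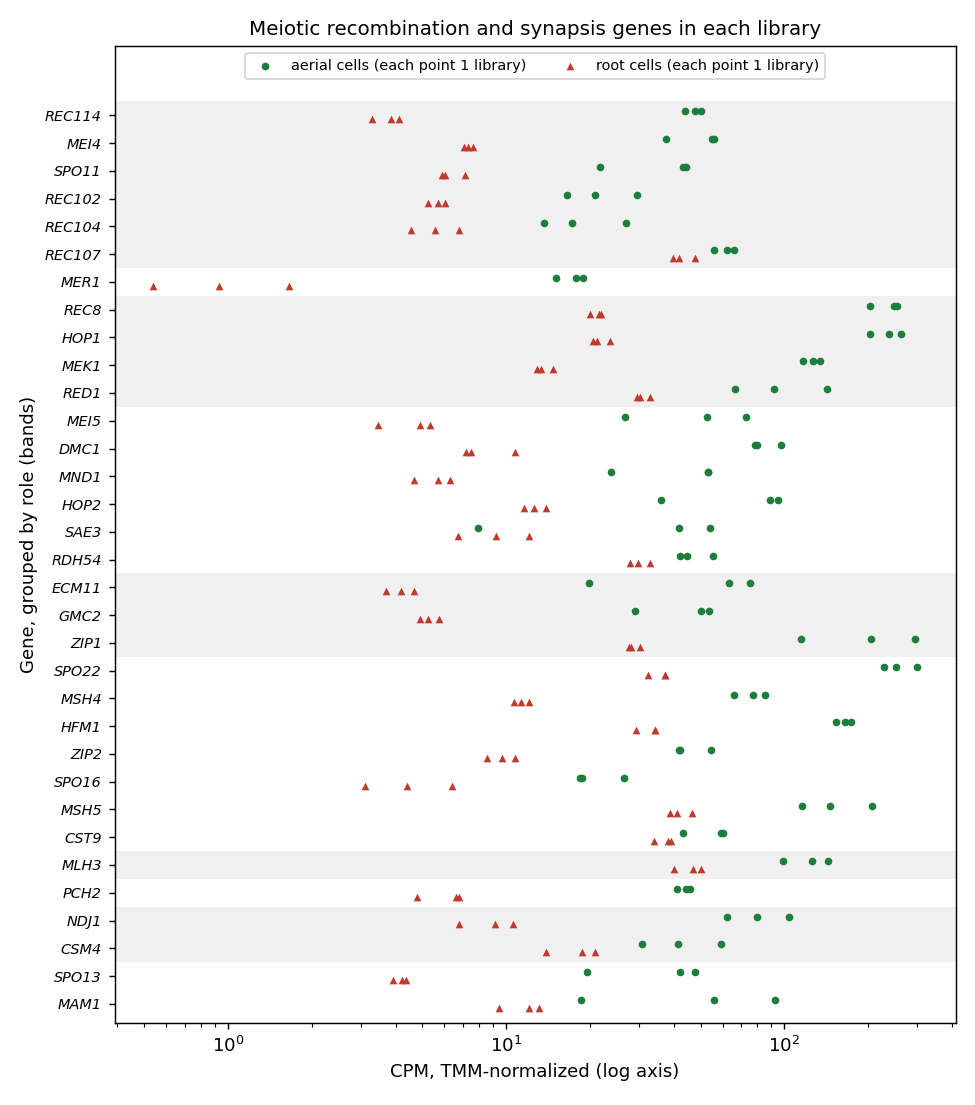
CPM of the 33 genes in each library on a log axis, with aerial libraries as circles above root libraries as triangles, and bands that separate the roles. Circles lie to the right of all triangles of the same gene in 32 of 33 rows, SAE3 being the row in which they overlap.

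Together the 33 genes took 0.189%, 0.343% and 0.315% of all counts in aerial replicates 1, 2 and 3, against 0.0519%, 0.0506% and 0.0573% in root replicates 1, 2 and 3. The mean share was 0.283% ± 0.0823 in aerial cells and 0.0533% ± 0.00352 in root cells (SD, n = 3 each), a 5.30-fold difference (exact permutation test, two-sided, p = 0.1, the smallest p that 3 libraries against 3 allow). Per kilobase of coding sequence, which allows genes to be compared with each other, the median level of the 33 was 57.7 CPM per kb in aerial cells and 9.17 CPM per kb in root cells. The medians over the 5678 annotated coding genes tested were 48.2 and 49.0 CPM per kb in aerial and root cells. Thus 18 of the 33 genes lay above that median in aerial cells and 0 did in root cells.

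The double-strand break proteins comprise Spo11, which cuts DNA by a topoisomerase-like reaction, its partners Rec102 and Rec104, and the Rec114, Mei4 and Rec107 (Mer2) group that brings Spo11 to the axis. Of these 6 genes, 5 were called higher in aerial cells. REC114 (YMR133W, chrXIII:536207-537609) had 43.8, 47.9 and 50.2 CPM in aerial libraries, against 4.11, 3.28 and 3.84 CPM in root libraries. Its log2 fold change was 3.66 (SE 0.20, adjusted p = 5.46e-05), a 12.6-fold difference with little spread in either cell type. MEI4 (YER044C-A, chrV:238460-239774) had 37.7, 55.7 and 54.8 CPM in aerial libraries and 7.29, 7.03 and 7.61 CPM in root libraries (log2 fold change 2.76, SE 0.22, adjusted p = 0.000292). SPO11 (YHL022C, chrVIII:62961-64157) itself had 21.7, 43.3 and 44.2 CPM in aerial libraries, against 6.03, 5.90 and 7.10 CPM in root libraries (log2 fold change 2.52, SE 0.30, adjusted p = 0.000946). For both genes aerial replicate 1 was the lowest aerial library and still stood well above all root libraries.

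The Spo11 partners had smaller fold changes. REC102 (YLR329W, chrXII:786442-787333) had 16.5, 20.8 and 29.6 CPM in aerial libraries and 5.70, 5.24 and 6.01 CPM in root libraries (log2 fold change 1.98, SE 0.26, adjusted p = 0.00121). REC104 (YHR157W, chrVIII:412907-413455) had 13.7, 17.2 and 26.9 CPM in aerial libraries and 6.76, 4.53 and 5.56 CPM in root libraries (log2 fold change 1.78, SE 0.30, adjusted p = 0.00313). In both, aerial replicate 3 was the highest library and no groups overlapped. REC107 (YJR021C, chrX:468555-469579) had a high root level, with 65.9, 62.3 and 56.0 CPM in aerial libraries against 41.8, 39.9 and 47.7 CPM in root libraries. The libraries did not overlap, but the 1.42-fold difference (log2 0.51, SE 0.17, adjusted p = 0.0440) was below the fold required for a call. At 45.7 CPM per kb, REC107 was the most abundant of the 33 genes in root cells.

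MER1 (YNL210W, chrXIV:250931-251743) encodes a meiosis-specific splicing factor, which is needed to splice the transcripts of REC107, HFM1 and SPO22 among others. Its 213, 281 and 299 counts in aerial libraries stood against 14, 9 and 26 counts in root libraries, or 17.8, 15.1 and 18.9 CPM against 0.928, 0.536 and 1.66 CPM. The log2 fold change of 4.05 (SE 0.36, adjusted p = 0.000444) was the largest estimate among all 7971 loci. With single libraries left out, the estimate ran from 3.68 to 4.5. MER1 was not tested where at least 10 counts were required in every library. Its first place is a rank of estimates, and its lead over the next loci was not tested. The root level rests on few counts, and the coefficient of variation over root libraries was 54.8% for MER1, while aerial libraries were close to each other at 11.3%. MER1 was nonetheless a scarce transcript in aerial cells too, with 21.2 CPM per kb there, the second lowest of the 33 next to RDH54 at 16.5 CPM per kb.

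Introns are rare in yeast, yet 12 of the 33 recombination and synapsis genes (36.4%) have one in the coding sequence, against 279 of 5914 annotated protein-coding genes (4.72%). The 12 genes hold 13 introns, of which 7 begin with the usual GTATGT (53.8%), as do 205 of 309 introns that were compared (66.3%). The start of each intron is shown for the known MER1-dependent transcripts of the set, REC107, HFM1 and SPO22, with DMC1 as a gene with the usual letters and the first intron of HOP2 as another unusual one. The windows are from R64 of RefSeq, on the strand of the gene, with the first 6 bases of the intron in capitals after 8 bases of exon.
REC107: tacgaacgGTTCGTaccaacacag
HFM1: tccaaataGTAGTAacgaagctta
SPO22: gttatgcgGTATATaacaaaatgc
DMC1: cagtcaatGTATGTtataataaca
HOP2: ctcagaagGTTAAGtattttttta

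The first 6 bases of the HFM1 intron, the SPO22 intron and the first HOP2 intron each occurred in no other intron of the 309. Those of REC107 occurred in 2 introns of the 309, its own included. The 12 genes with an intron had a median log2 fold change of 2.80, with 11 called, and the 21 genes without had a median of 2.52, with 19 called. Counts per gene do not separate spliced from unspliced RNA, so splicing itself was not measured.

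The 4 genes of the chromosome axis and its kinase were all called. REC8 encodes the meiotic kleisin of cohesin, which holds sister chromatids together, HOP1 and RED1 encode axis proteins that stand at the base of the chromatin loops, and Mek1 is the kinase that directs repair towards the homologue. REC8 (YPR007C, chrXVI:569336-571378) had 203, 248 and 255 CPM in aerial libraries and 21.9, 20 and 21.5 CPM in root libraries (log2 fold change 3.47, SE 0.19, adjusted p = 5.46e-05). HOP1 (YIL072W, chrIX:226602-228419) was almost the same, with 204, 238 and 263 CPM in aerial libraries and 23.7, 20.6 and 21.2 CPM in root libraries (log2 fold change 3.43, SE 0.20, adjusted p = 5.46e-05). MEK1 (YOR351C, chrXV:995018-996511) had 117, 127 and 134 CPM in aerial libraries and 13.3, 12.9 and 14.7 CPM in root libraries (log2 fold change 3.20, SE 0.17, adjusted p = 5.46e-05). These 3 genes had tight groups about 10-fold apart, at 11.1-, 10.8- and 9.22-fold. RED1 (YLR263W, chrXII:670340-672823) had 66.3, 143 and 91.6 CPM in aerial libraries against 29.6, 30.4 and 32.8 CPM in root libraries, a smaller and more variable difference (log2 fold change 1.70, SE 0.27, adjusted p = 0.00259).

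Strand exchange genes gave 5 called of 6. DMC1 (YER179W, chrV:548421-549517), the meiotic relative of bacterial RecA, had 79.7, 78.4 and 97.7 CPM in aerial libraries and 7.49, 7.15 and 10.8 CPM in root libraries (log2 fold change 3.33, SE 0.23, adjusted p = 0.000142). MEI5 and SAE3 encode a complex that loads Dmc1, and their levels varied more among aerial libraries. MEI5 (YPL121C, chrXVI:320962-321630) had 26.7, 72.6 and 52.9 CPM in aerial libraries and 4.91, 3.46 and 5.31 CPM in root libraries (log2 fold change 3.48, SE 0.38, adjusted p = 0.000761). SAE3 (YHR079C-A, chrVIII:262192-262553) had 7.93, 41.8 and 54.2 CPM in aerial libraries and 9.22, 6.73 and 12.1 CPM in root libraries, so that aerial replicate 1 lay among the root libraries. Its call (log2 fold change 1.89, SE 0.58, adjusted p = 0.0346) was lost when any library other than aerial replicate 1 was left out, with an adjusted p of up to 0.136 without aerial replicate 3.

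HOP2 and MND1 encode the partners that help Dmc1 find the homologue. HOP2 (YGL033W, chrVII:435625-436401) had 36.1, 89.0 and 94.6 CPM in aerial libraries and 13.9, 11.6 and 12.6 CPM in root libraries (log2 fold change 2.53, SE 0.35, adjusted p = 0.00141). MND1 (YGL183C, chrVII:156543-157285) had 23.9, 53.4 and 53.4 CPM in aerial libraries and 6.30, 4.65 and 5.69 CPM in root libraries (log2 fold change 2.98, SE 0.34, adjusted p = 0.000873). The partners shared their pattern, with aerial replicates 2 and 3 alike and aerial replicate 1 lower but above the root libraries. RDH54 (YBR073W, chrII:383112-385988), which encodes a DNA translocase that acts with Dmc1 and also works in mitotic repair, had 44.8, 55.5 and 42.1 CPM in aerial libraries and 29.7, 28.0 and 33 CPM in root libraries. Its 1.57-fold difference (log2 0.65, SE 0.18, adjusted p = 0.0255) was not called, though the libraries did not overlap.

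All 3 genes of the central region of the synaptonemal complex were called. Zip1 forms the transverse filaments that span the gap between homologues, and Ecm11 and Gmc2 form the central element that assembles with it. ZIP1 (YDR285W, chrIV:1032436-1035063) had 115, 296 and 205 CPM in aerial libraries and 28.1, 30.3 and 27.7 CPM in root libraries (log2 fold change 2.84, SE 0.32, adjusted p = 0.000882). ECM11 (YDR446W, chrIV:1353725-1354633) had 19.9, 75.3 and 63.4 CPM in aerial libraries and 4.18, 4.65 and 3.71 CPM in root libraries (log2 fold change 3.66, SE 0.46, adjusted p = 0.00113). GMC2 (YLR445W, chrXII:1024189-1024837) had 29.1, 53.8 and 50.3 CPM in aerial libraries and 4.91, 5.24 and 5.75 CPM in root libraries (log2 fold change 3.07, SE 0.27, adjusted p = 0.000444). Root libraries were uniform for all 3 genes, and aerial replicate 1 was the lowest aerial library each time.

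The ZMM proteins stabilise recombination intermediates that become crossovers, and 6 of their 7 genes were called. SPO22 (ZIP4, YIL073C, chrIX:222937-225954), a scaffold of the group, had 228, 301 and 253 CPM in aerial libraries and 37.4, 32.5 and 37.3 CPM in root libraries (log2 fold change 2.87, SE 0.20, adjusted p = 0.000142). ZIP2 and SPO16, whose products bind branched DNA with Spo22, followed at lower levels. ZIP2 (YGL249W, chrVII:33098-35212) had 42.2, 54.4 and 41.9 CPM in aerial libraries and 8.55, 9.65 and 10.8 CPM in root libraries (log2 fold change 2.25, SE 0.21, adjusted p = 0.000450). SPO16 (YHR153C, chrVIII:402086-402682) had 18.4, 18.8 and 26.6 CPM in aerial libraries and 6.37, 3.10 and 4.41 CPM in root libraries (log2 fold change 2.21, SE 0.30, adjusted p = 0.00142). None of these groups overlapped. The annotation places the antisense RNA gene RME3 across ZIP2 on the other strand, and the authors' counting kept the strands apart.

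HFM1 (MER3, YGL251C, chrVII:27921-31636), a DNA helicase, had 166, 174 and 153 CPM in aerial libraries and 29.4, 34.4 and 34.3 CPM in root libraries (log2 fold change 2.33, SE 0.17, adjusted p = 0.000234). Msh4 and Msh5 form a clamp that encloses recombination intermediates. MSH4 (YFL003C, chrVI:134521-137157) had 65.8, 85.5 and 77.5 CPM in aerial libraries and 12.1, 11.3 and 10.7 CPM in root libraries (log2 fold change 2.75, SE 0.19, adjusted p = 0.000142). MSH5 (YDL154W, chrIV:178334-181039) had 116, 207 and 146 CPM in aerial libraries and 41.1, 38.7 and 46.7 CPM in root libraries (log2 fold change 1.89, SE 0.24, adjusted p = 0.00113). The subunits of this clamp thus had levels per length of 28.9 and 57.7 CPM per kb in aerial cells for MSH4 and MSH5, against 4.31 and 15.6 CPM per kb in root cells. CST9 (ZIP3, YLR394W, chrXII:907950-909398), a likely SUMO ligase of the group, had 43.1, 59.3 and 60.3 CPM in aerial libraries and 39.2, 34.1 and 38.1 CPM in root libraries. The libraries did not overlap, and the difference missed both limits (1.46-fold, log2 0.55, SE 0.19, adjusted p = 0.0536).

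MLH3 (YPL164C, chrXVI:239350-241497) encodes the endonuclease subunit that resolves crossovers. It had 98.6, 144 and 126 CPM in aerial libraries and 47.1, 40.0 and 50.3 CPM in root libraries (log2 fold change 1.42, SE 0.20, adjusted p = 0.00149). PCH2 (YBR186W, chrII:600553-602360), whose product removes Hop1 from synapsed axes and serves a checkpoint, had 44.2, 45.8 and 41.2 CPM in aerial libraries and 4.77, 6.61 and 6.78 CPM in root libraries (log2 fold change 2.85, SE 0.21, adjusted p = 0.000236). PCH2 had the most even aerial libraries of the 33 genes, with a coefficient of variation of 5.36%.

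NDJ1 and CSM4 act in the telomere-led movement of meiotic chromosomes, NDJ1 at the telomere and CSM4 at the nuclear envelope. NDJ1 (YOL104C, chrXV:116396-117454) had 79.6, 62.1 and 104 CPM in aerial libraries and 9.08, 6.79 and 10.6 CPM in root libraries (log2 fold change 3.21, SE 0.26, adjusted p = 0.000335). CSM4 (YPL200W, chrXVI:171484-171954) had 41.6, 30.7 and 59.2 CPM in aerial libraries and 20.8, 13.9 and 18.7 CPM in root libraries (log2 fold change 1.30, SE 0.27, adjusted p = 0.00826), and without root replicate 2 its adjusted p was 0.0517. In both genes aerial replicate 2, not 1, was the lowest aerial library.

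SPO13 and MAM1 make sister chromatids stay together and face the same pole in meiosis I. SPO13 (YHR014W, chrVIII:132047-132922) had 19.6, 42.2 and 47.9 CPM in aerial libraries and 4.38, 3.93 and 4.22 CPM in root libraries (log2 fold change 3.13, SE 0.34, adjusted p = 0.000761). MAM1 (YER106W, chrV:372326-373234), the meiosis-specific subunit of monopolin, had 18.6, 92.8 and 55.8 CPM in aerial libraries and 12.1, 9.41 and 13.1 CPM in root libraries (log2 fold change 2.27, SE 0.49, adjusted p = 0.00874). Aerial replicate 1 was the lowest aerial library for both and came nearest to the root libraries in MAM1.

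**Figure D2:**
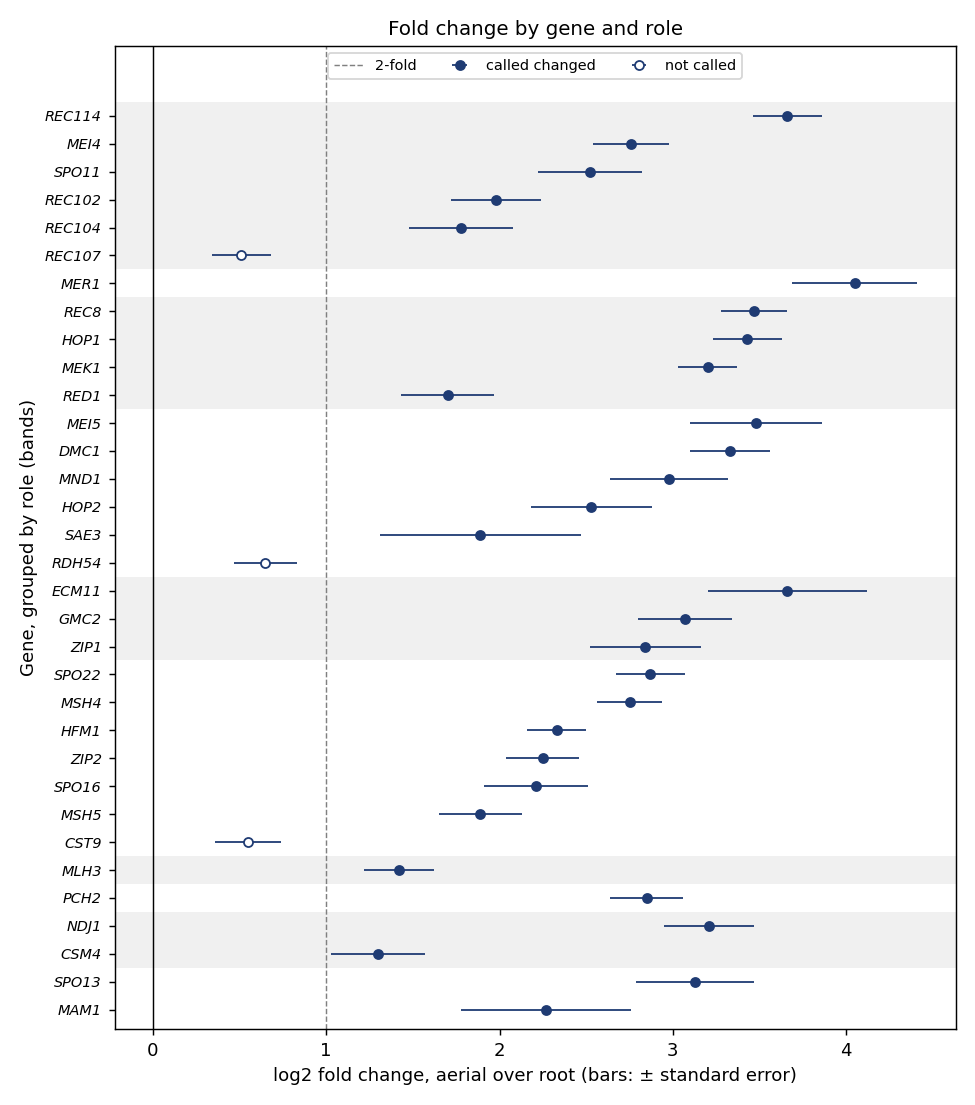
Log2 fold change, aerial over root, of each of the 33 genes with its standard error, filled where called and open where not, with a dashed line at the 2-fold limit. MER1 stands farthest right at 4.05, and the 3 open points, REC107, RDH54 and CST9, lie between 0.51 and 0.65.

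The order of levels per length in aerial cells was led by HOP1 at 129 ± 16.1 CPM per kb, SAE3 at 125 ± 86.8, REC8 at 115 ± 13.8 and HOP2 at 114 ± 50.1 (SD, n = 3 each). These neighbours did not differ beyond their spread. In root cells REC107, CSM4 and SAE3 led with 45.7 ± 4.35, 37.9 ± 7.49 and 33.9 ± 9.70 CPM per kb, and MER1 was lowest at 1.28 ± 0.703 CPM per kb (SD, n = 3 each).

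Genes with and without the URS1 core overlapped widely in their fold changes. The 19 genes with a core had a median log2 fold change of 2.87, with 18 called and CST9 not called, and the 14 without had a median of 2.26, with 12 called and REC107 and RDH54 not called. ECM11, at 3.66, was the highest of the genes without a core. The 5 genes with the letters of the middle sporulation element were CST9, MAM1, MLH3, MSH5 and RED1, and their median was 1.70, against 2.84 for the other 28. Those letters were about as frequent upstream of the 33 genes (15.2%) as of all annotated protein-coding genes (16.6%). The difference between these medians was not tested. When the 50 bases after the start codon were searched as well, the number with a URS1 core was again 19 of the 33.

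**Figure D3:**
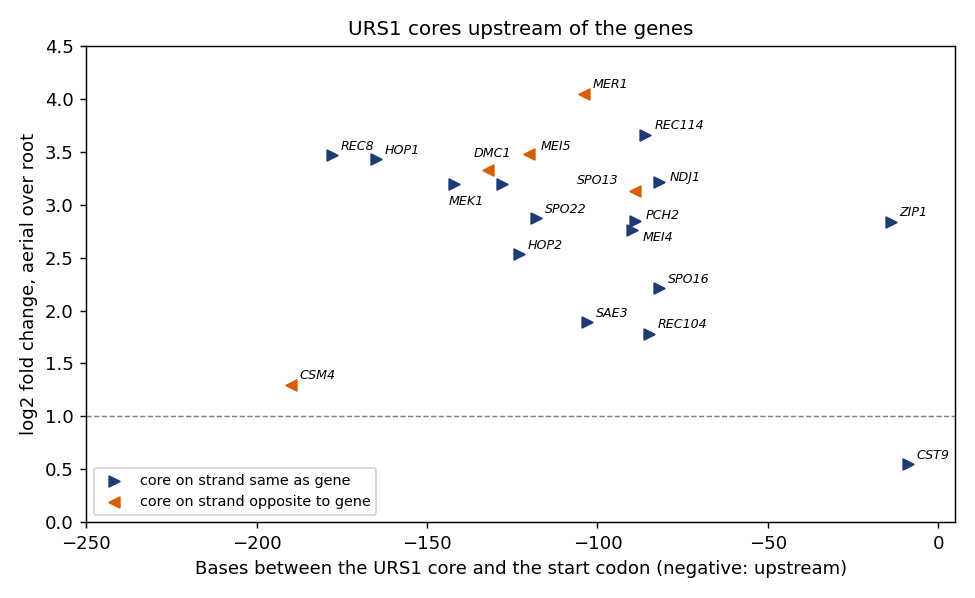
Distance in bases from each of the 20 URS1 cores to the start codon, drawn as negative values upstream, against the log2 fold change of its gene, aerial over root, with the direction of the symbol giving the strand of the core. CST9, at 0.55, has its core 9 bases before the start codon and ZIP1, at 2.84, has its core 14 bases before it, nearer than in any other gene shown.

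Aerial replicate 1 stood apart from the other aerial libraries for many of these genes. It was the lowest aerial library for 24 of the 33, and for 35.1% of all loci tested. Its CPM was below 0.5 of the mean of aerial replicates 2 and 3 for 9 of the 33 genes, and for 648 of the 7971 loci. The lowest ratios were 0.165 for SAE3, 0.251 for MAM1, 0.286 for ECM11 and 0.393 for HOP2. At the other end REC107 had 1.11, MER1 1.05, PCH2 1.02 and HFM1 1.01. By role, the median ratio was 0.343 for the genes of meiosis I segregation, 0.436 for strand exchange, 0.458 for the central region, 0.669 for the double-strand break proteins, 0.731 for MLH3, 0.811 for the axis genes, 0.812 for the ZMM genes, 0.941 for telomere-led movement, 1.02 for PCH2 and 1.05 for MER1. The values for MLH3, PCH2 and MER1 are those of 1 gene each, and meiosis I segregation and telomere-led movement hold 2 genes each. Over all loci tested the median ratio was 0.989, and over the 733 loci called higher in aerial cells it was 0.949. Without aerial replicate 1, the number of called genes of the 33 was again 30 and their median log2 fold change was 2.84.

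**Figure D4:**
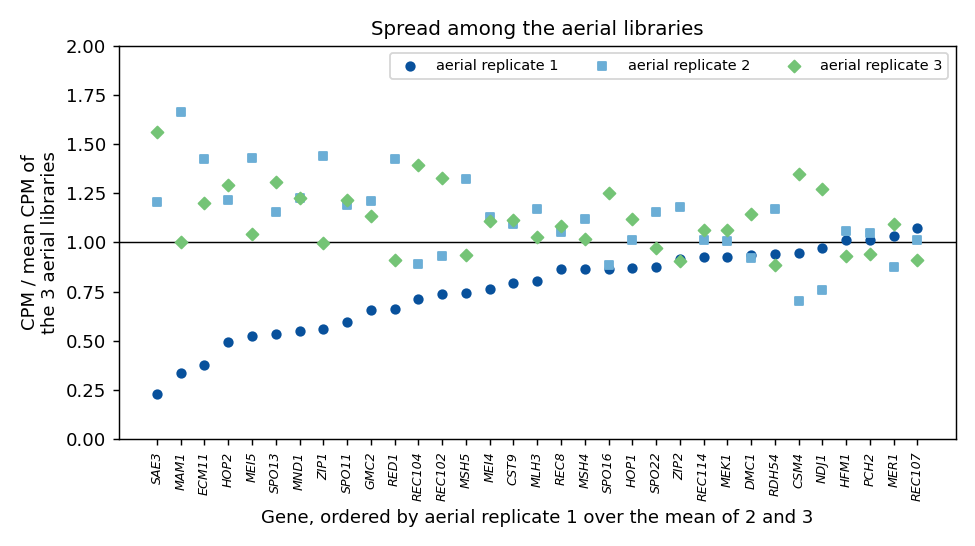
CPM of each gene in aerial replicates 1, 2 and 3, divided by the mean of the 3, with genes ordered by aerial replicate 1 over the mean of the other two. Aerial replicate 1 is the lowest point for 24 of the 33 genes, most widely for SAE3, MAM1 and ECM11 at the left.

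Late sporulation and spore wall genes, which are active in cells that form spores, moved the same way. All 22 of them were called higher in aerial cells, against 9.20% of all loci tested. Their median log2 fold change was 1.67, and their summed level was 7337 to 21867 CPM in aerial libraries against 2936 to 5440 CPM in root libraries. None was at 0 in any library, and the largest log2 fold changes were 1.99 for SPS100, 1.96 for SPO77 and 1.95 for SPR28. SPS4 was the most abundant of the 22 in every library and weighs most in the summed level. It had 2789, 13043 and 7172 CPM in aerial libraries and 2393, 1436 and 2860 CPM in root libraries. The URS1 core was found upstream of 1 of the 22 and the letters of the middle sporulation element upstream of 17 (77.3%). Aerial replicate 1 was low here as well, with a median ratio to the mean of the other aerial libraries of 0.467. The study states, from unpublished observations, that BR-F colonies seldom sporulate and that the strain sporulates poorly in liquid medium too. The part of spore-forming cells in the values of the recombination and synapsis genes was not tested.

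Markers of haploid and mating cells, which a diploid should keep low, were present at 158 to 213 CPM summed in aerial libraries and 122 to 135 CPM in root libraries. Of 16 listed, 15 were tested and 3 were called higher in aerial cells, against 9.20% of all loci tested. These 3 were STE18 at a log2 fold change of 1.87, FAR1 at 1.58 and STE3 at 1.26. The median of the 15 was 0.75, against 0.03 over all loci tested. The part of haploid or mating cells in the result was not tested.

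Regulators of entry into meiosis and of the steps after it were called higher in aerial cells in 7 of 15 cases. Higher in root cells were 0 of them, against 9.20% and 10.8% of all loci tested in aerial and root cells. Their median log2 fold change was 0.74. The largest were SLZ1, a subunit of the mRNA methylation complex, at 2.58, the kinase gene IME2 at 2.23 and the transcription factor gene NDT80 at 1.93. SLZ1 had 36.9, 391 and 301 CPM in aerial libraries and 47.4, 31.9 and 43.1 CPM in root libraries (SE 0.67, adjusted p = 0.0196), so that aerial replicate 1 lay among the root libraries. NDT80 had 120, 233 and 166 CPM in aerial libraries and 46.7, 33.1 and 56.4 CPM in root libraries, with no overlap.

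General recombination genes, which serve mitotic repair as well as meiosis, were set beside the meiotic ones. Of 33 such genes, 4 were called higher in aerial cells and 0 higher in root cells, with a median log2 fold change of 0.58. Over all loci tested, 9.20% were called higher in aerial cells and 10.8% higher in root cells, with a median of 0.03. An adjusted p below 0.05 was reached by 16 of the 33 and by 2515 of the 7971 loci. When a fold of 1.5 was required in place of 2, 15 of the 33 were called, and the share of all loci at that fold is not given here. The 4 were RFA3, a subunit of the single-strand binding protein, at 1.40, the checkpoint kinase genes MEC1 at 1.19 and TEL1 at 1.16, and MMS4, the partner of the Mus81 nuclease, at 1.15. Among 13 cohesin and monopolin partners shared with mitosis, 6 were called higher in aerial cells and 0 higher in root cells, with a median of 0.88. These were the cohesin subunit genes IRR1 at 1.85, SMC1 at 1.54 and SMC3 at 1.54, the cohesin maintenance gene PDS5 at 1.80, the shugoshin gene SGO1 at 1.26 and the cohesin acetyltransferase gene ECO1 at 1.17.

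**Figure D5:**
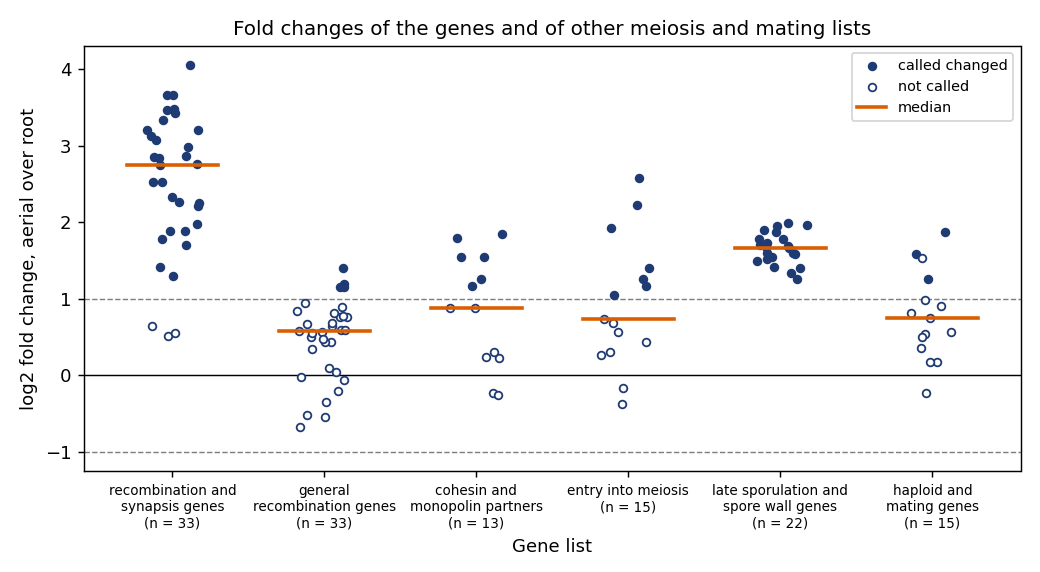
Log2 fold change, aerial over root, of the 33 recombination and synapsis genes and of the tested genes of 5 other lists, filled where called, with the median of each list as a bar and dashed lines at 2-fold in either direction. Medians run at 2.75 for the recombination and synapsis genes, 0.58 for general recombination genes, 0.88 for cohesin and monopolin partners, 0.74 for entry into meiosis, 1.67 for late sporulation and 0.75 for haploid and mating genes.

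In 2 cases a gene of the set was set beside a related gene that also serves mitotic cells, measured in the same libraries per length. The log2 ratio of REC8 to MCD1, the mitotic kleisin, was 3.94, 3.61 and 4.43 in aerial libraries and 0.13, -0.02 and 0.70 in root libraries. In root cells REC8 and MCD1 were thus at similar levels, and in aerial cells REC8 exceeded MCD1 in every library. The log2 ratio of RDH54 to RAD54 was -1.20, -1.09 and -0.84 in aerial libraries and -2.32, -2.51 and -2.34 in root libraries. The differences of the mean log2 ratios, aerial minus root, were 3.72 for REC8 to MCD1 and 1.35 for RDH54 to RAD54, given as a description with no test, since the pairs were chosen with their values known. MCD1 was not called (log2 fold change -0.23, adjusted p = 0.546). RAD54 had 96.7, 111 and 70.5 CPM in aerial libraries and 139, 149 and 157 CPM in root libraries, with every aerial library below every root library. Its log2 fold change of -0.68 (SE 0.20, adjusted p = 0.0327) was below the fold required for a call, and with the 0.65 of RDH54 it makes up the difference of that ratio.

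An antisense lncRNA named after DMC1 was listed in the same table. It had 9, 2 and 8 counts in aerial libraries and 12, 11 and 7 counts in root libraries, and its difference (log2 fold change -0.57, SE 0.59, adjusted p = 0.491) was not detectable at this depth.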

How the data were processed

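RNA from aerial and root cells (3 libraries each) was depleted of ribosomal RNA and sequenced with strand kept. The authors mapped reads to R64 with TopHat2 2.0.14 and counted them per locus with featureCounts, and they deposited these counts without normalization. How reads matching several loci were counted is not given in the sources used here. The line of the table without a locus name was dropped, and 0 value columns went unused. BLAST+ 2.17.0 found no copy of any of the 33 genes at 90% identity across 50% of its length.

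Low counts were removed by filterByExpr, TMM factors lay between 0.871 and 1.09, and the test was the quasi-likelihood test of edgeR 4.0.16 (limma 3.58.1, R 4.3.3) for aerial against root cells, with Benjamini-Hochberg adjustment over 7971 loci. DESeq2 1.42.0 was an alternative, as were other normalizations, filters and a fold of 1.5, the replicate block, and each library left out. The fit was also run on simulated counts with the same dispersion (0.0574) in every library. That setting lacks the wider spread of the aerial libraries, so it only checks the code. The share of counts was compared by an exact permutation test, whose p cannot fall below 0.1 here. The edgeR p-values set a difference against the variation between these libraries, estimated with information shared over loci. Sequences, introns and positions are from R64 of RefSeq, to which 5914 of 6558 protein-coding loci were matched. Tables and plots were made in Python 3.11.15 with pandas 2.3.3, numpy 2.4.6, scipy 1.17.1 and matplotlib 3.10.9.

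The genes and lists were chosen with earlier results of these data known. All 33 genes were to be named. Of other lists, all called genes were named where there were at most 6, and otherwise the 3 with the largest change. The paired ratios, the ranks and the library ratios were chosen after values had been seen, as were MCD1, RAD54 and SPS4 among the genes named. Single results for some related genes are not reported here.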

Additional observations from a re-analysis of the deposited data

How the results depend on the processing

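Of 494 values of single genes under 15 alternatives, 487 kept their direction and their side of the threshold, 6 lost the call (SAE3 in 5, CSM4 in 1) and 1 gained it (RDH54 at a fold of 1.5), and 0 changed direction. The number of the 33 genes called was 28 to 30 with single libraries left out, lowest without root replicate 2, and 29 to 31 under the other alternatives. It was 29 with at least 10 counts in every library, where MER1, with 9 counts in root replicate 2, was not tested. The median log2 fold change ranged from 2.48 to 2.84 with single libraries left out. General recombination genes called numbered 15 in place of 4 at a fold of 1.5, since that limit admits smaller changes. They numbered 5 with upper quartile factors and 3 to 4 with single libraries left out. The difference in the share of counts was 0.199 to 0.276 percentage points with single libraries left out and 0.255 without the 10 loci with most counts.

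The libraries carry the same replicate numbers in both cell types, but the labels do not say that a number marks a pair. Deviations from the group means had correlations of -0.142, 0.14 and -0.044 for same-numbered libraries. Those for libraries of different numbers ran from -0.3 to 0.361, and so few values cannot settle whether libraries were paired. The main fit used no pairs, since the study's methods name no covariate. With the replicate block, 30 of the 33 genes and 4 general recombination genes were called, and the median was 2.74. Depth limited MER1 and the DMC1 antisense locus most, with counts of 9 to 26 and 7 to 12 in root libraries.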
